A study of Mus musculus with 10 samples.

Results

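The 10 Mb interval of mouse chromosome 5 whose genes start between positions 94000000 and 104000000 (mm10) holds Fras1 and Anxa3, which lie side by side, and further along Cds1. It was placed there because these 3 genes were far higher in DGCR8 KO than in wild-type (WT) embryonic stem cells (ESCs), so they were selected on that comparison. Their low WT values serve again as the baseline for DDX6 KO, so the values of these 3 genes are a description without a test in every comparison. Members are all rows of the gene table with a start inside the interval, except Fgf5, and they number 184 of 51467, of which 67 are protein-coding. The question was whether the neighbours of the 3 genes, taken in gene order, also changed, first without DGCR8 and then without DDX6.

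The libraries came from ESCs kept in LIF and 2i (PD0325901 and CHIR99021) with serum, and fall into 3 genotypes: WT (n = 3), DGCR8 KO (n = 3) and DDX6 KO (n = 4). WT is the V6.5 line, the DGCR8 KO cells are a line made earlier in the same laboratory, and the DDX6 KO cells are 2 CRISPR-Cas9 clones of V6.5 with 2 libraries each, one clone with an inserted nucleotide and the other with a large deletion. No source used here names more than one line for DGCR8 KO, so in that genotype the lost gene and the history of the line cannot be told apart. QuantSeq 3′ FWD libraries, which sequence the 3′ end of polyadenylated RNA, gave 2131156 to 4745083 counts per library. Dgcr8 itself was at 11.6 ± 3.41 CPM (read counts scaled to the size of the library) in DGCR8 KO and 56.1 ± 8.41 in WT, and Ddx6 was at 87.2 ± 63.8 CPM in DDX6 KO and 538 ± 42.3 in WT (mean ± SD). Nothing in the labels says that libraries of a genotype came from separate cultures, so every p-value measures the spread between these libraries, which may be technical.

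DGCR8 is the RNA-binding partner of Drosha, and cells without it cannot process canonical primary miRNAs, while DDX6 is an RNA helicase of P-bodies that joins miRNA-bound repressor complexes to translational repression and decapping. Many of the miRNAs of ESCs belong to the ESCC family (the miR-290 and miR-302 clusters), whose members share a seed. Fras1 codes for an extracellular matrix protein of epithelial basement membranes that is lost in Fraser syndrome, Anxa3 for a calcium-dependent phospholipid-binding annexin, and Cds1 for an enzyme that makes CDP-diacylglycerol, the precursor of phosphatidylinositol and cardiolipin.

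Because a miRNA target site is one feature that members could share and the choice of the interval did not use, the ESCC seed was looked up in their 3′UTRs. Mature ESCC miRNAs (RefSeq, GRCm38.p6) are shown with bases 2 to 8, the seed, in capitals.
miR-294-3p: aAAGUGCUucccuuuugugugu
miR-302d-3p: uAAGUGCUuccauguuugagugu
A match was a run of AGCACTT or GCACTTA on the sense strand of the 3′UTR of a gene's main coding transcript. Among the 24 protein-coding members abundant enough to be tested, Cnot6l alone held such a match (4.2%), against 2180 of 10976 tested genes in all (19.9%). The match in Cnot6l joins both runs into an 8-base site, at chr5:96076658-96076665 on the minus strand, and is shown with its surroundings and the site in capitals.
Cnot6l 3′UTR: cacattatcaaAGCACTTAaatttgcttga
Neither the 2957 bases of the Fras1 3′UTR nor the 406 bases of that of Anxa3 held these letters, and no match was found in Cds1, Bmp2k or Wdfy3. The 6 letters GCACTT, a search added after the first one, were found in 7 of the 24 (29.2%) and in 3510 of the 10976 (32%), and the 7 were Cnot6l, Mrpl1, Bmp2k, Abraxas1, Cds1, Wdfy3 and Hsd17b11. Such a match describes letters only and is not evidence of binding.

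Promoters of Cds1 and Bmp2k, 2 of the members that were higher in both knockouts, are shown with their CG dinucleotides in capitals (250 bases before to 50 after the start, RefSeq, GRCm38.p6).
Cds1, chr5:101764880-101765179, plus strand: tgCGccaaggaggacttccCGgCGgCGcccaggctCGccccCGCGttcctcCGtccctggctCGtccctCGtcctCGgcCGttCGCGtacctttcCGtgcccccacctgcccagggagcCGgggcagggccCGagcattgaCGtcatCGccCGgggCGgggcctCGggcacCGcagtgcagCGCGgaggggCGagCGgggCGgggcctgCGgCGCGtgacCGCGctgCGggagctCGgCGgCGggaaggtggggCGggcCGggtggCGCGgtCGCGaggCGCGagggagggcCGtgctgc
Bmp2k, chr5:96997439-96997738, plus strand: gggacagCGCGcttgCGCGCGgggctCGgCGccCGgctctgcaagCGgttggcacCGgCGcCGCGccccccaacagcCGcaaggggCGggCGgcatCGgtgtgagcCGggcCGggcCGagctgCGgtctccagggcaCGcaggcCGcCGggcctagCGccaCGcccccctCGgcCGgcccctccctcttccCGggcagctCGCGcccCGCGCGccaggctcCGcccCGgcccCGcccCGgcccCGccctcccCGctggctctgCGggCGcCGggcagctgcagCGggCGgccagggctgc
The Cds1 promoter holds 46 CG and the Bmp2k promoter 45, where the median of 32851 mouse promoters is 7. As many or more were counted in 1.6% and 1.9% of those promoters. Other higher members varied, with 31, 40 and 49 CG in the entries of Cnot6l. Naa11, which was higher in DDX6 KO, had 16. 4930524J08Rik, which was lower in DDX6 KO, had 40. Members with a log2 fold change below 1 in size in both knockouts also varied widely. Some had like counts, with 45 CG for Hnrnpd, 42 for Hnrnpdl and 36 for Enoph1. Others had fewer, with 25 for Helq, 23 for Gpat3, 20 for Cops4, 18 for Hsd17b11 and 17 for Mrpl1. Promoter entries were matched for 21 of the tested members; Fras1, Anxa3 and Wdfy3 had none.

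Most of the interval gave few or no reads. Of the 184 members, 107 had 0 counts in every library and 77 had at least 1. A gene was tested where it reached 3 CPM in at least 3 of the 10 libraries, which 27 members did (24 of them protein-coding), as did 11683 genes in all. Because a gene may pass through a single high genotype, as Fras1 did only through DGCR8 KO, counts over the tested members are a description. The first 41 members in gene order, which start before 96 Mb, gave no tested gene, and only 4 of them had a count. Long untested stretches also separate the changed genes. Between Naa11 and Hnrnpd 35 members include 1 tested gene, between Gpat3 and Cds1 none of 7 was tested, and between Wdfy3 and Ptpn13 none of 14. The interval took 0.225% to 0.239% of all counts in WT, 0.254% to 0.278% in DGCR8 KO and 0.22% to 0.226% in DDX6 KO.

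In gene order the tested members higher by more than 1 on the log2 scale in DGCR8 KO stood in 2 places. The first held Cnot6l, Fras1, Anxa3 and Bmp2k, with Mrpl1, which did not pass the test, between Cnot6l and Fras1. The second held Cds1 with its next neighbour Wdfy3. Hnrnpdl and Aff1, each higher by 0.27 with a limma adjusted p under 0.05, lay outside both places. From the end of Bmp2k to the start of Cds1 is 4.67 Mb, and the 16 tested genes between Bmp2k and Cds1 were all within the 2-fold limit in DGCR8 KO except 4930524J08Rik, which did not pass the test. Called changed here means an adjusted p under 0.05 (limma with voom weights, Benjamini-Hochberg over all genes tested) and a log2 fold change beyond 1. By that rule 6 of 27 members were called in DGCR8 KO (22.2%), all higher, where 14.7% of all tested genes were called and 8.93% were called higher. Since 3 of the 6 were the genes that placed the interval, nothing is read from this share, and without them 3 of 24 were called higher (12.5%). With the adjusted p alone, 10 of 27 passed (37%, 8 higher and 2 lower) beside 36.3% of all genes, with the 3 selected genes among the higher. Below, a gene passed where its adjusted p was under 0.05. A result was lost in an alternative fit where that no longer held.

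**Figure D1:**
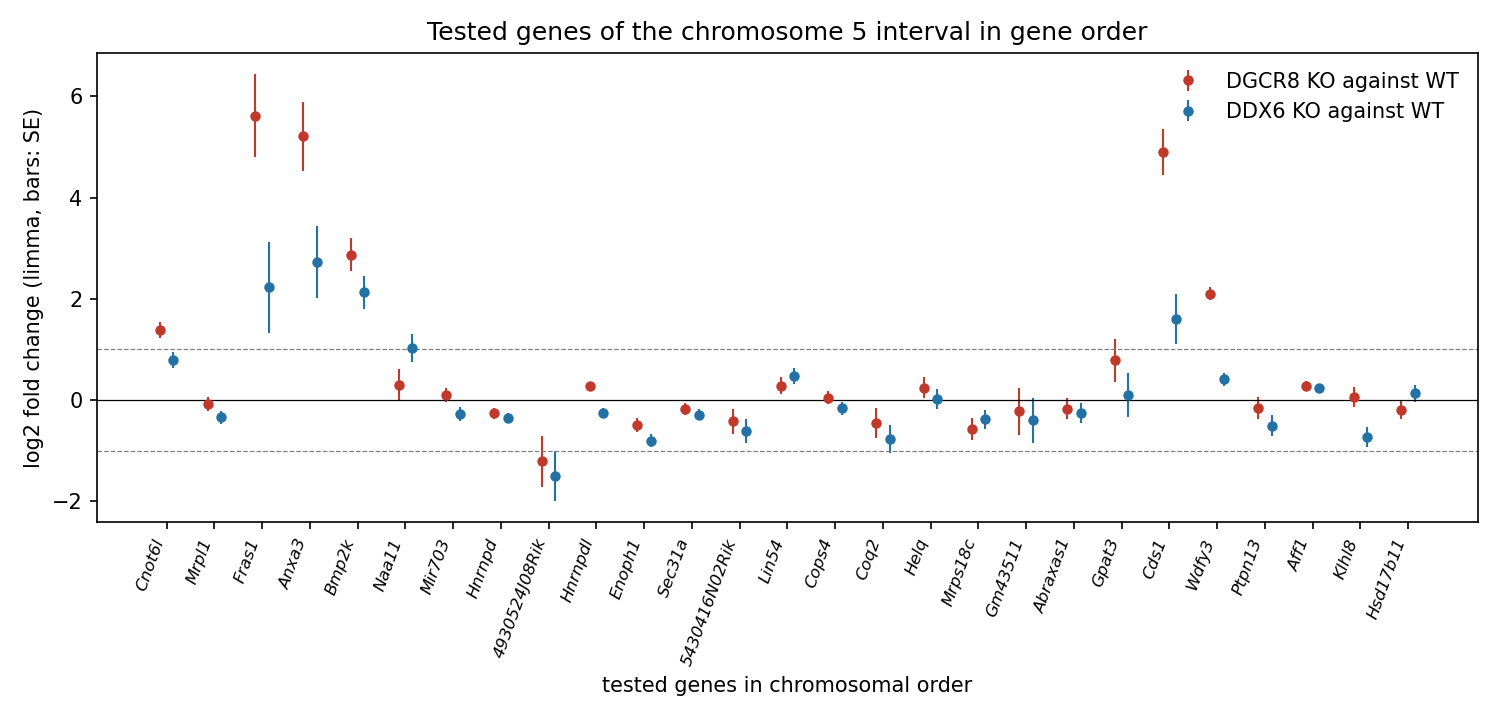
Log2 fold change against WT (limma estimate, bars SE) of the 27 tested members in chromosomal order, for DGCR8 KO (red, 3 libraries) and DDX6 KO (blue, 4 libraries) against 3 WT libraries; dashed lines mark a log2 fold change of 1 in either direction. Fras1, Anxa3 and Cds1 stand at 5.61, 5.21 and 4.90 in DGCR8 KO, and most other genes lie close to 0.

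Fras1 (ENSMUSG00000034687.8, chr5:96373955-96784728, plus strand) was almost without reads in WT. Its counts were 2, 1 and 2 in the WT libraries, 169, 72 and 61 in DGCR8 KO, and 15 and 4 in DDX6 KO clone 1 and 10 and 10 in clone 2. Scaled, this was 0.96, 0.341 and 0.446 CPM in WT, 51.7, 24.4 and 24.8 in DGCR8 KO, and 5.49, 1.39, 3.52 and 2.8 in DDX6 KO. The 3 genotypes did not overlap, with DGCR8 KO far above and DDX6 KO between. Summed over libraries, the count rate in DGCR8 KO was 66.2 times that in WT, from only 5 counts in WT in all. The fitted log2 fold change was 5.61. In DDX6 KO the count rate was 6.73 times that in WT, and all 4 libraries lay above every WT library. The fitted difference was 2.23 on the log2 scale (SE 0.90). Over 19 alternatives that difference was 1.60 to 2.61. In bulk RNA such as this, more RNA per cell and more cells that express the gene cannot be told apart.

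Anxa3 (ENSMUSG00000029484.12, chr5:96793385-96845966, plus strand) starts 8.7 kb beyond the end of Fras1 on the same strand. Its level was 1.44, 0.341 and 2.23 CPM in WT, 69.2, 38 and 44 in DGCR8 KO, and 11.7 and 4.87 in DDX6 KO clone 1 and 12.3 and 8.12 in clone 2. As with Fras1, the genotypes did not overlap and the order was WT, DDX6 KO, DGCR8 KO. Reads were 34.9 times as frequent in DGCR8 KO as in WT, from only 14 counts in WT in all. The fitted log2 fold change was 5.21. In DDX6 KO reads were 6.78 times as frequent as in WT. The fitted log2 fold change there was 2.72 (SE 0.71), with 2.52 in clone 1 and 2.90 in clone 2.

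Bmp2k, a kinase induced by BMP2 that takes part in clathrin-coated vesicle traffic, begins 151.7 kb after Anxa3 (chr5:96997689-97091867, plus strand) and is the next tested gene. It was at 8.16, 5.79 and 2.45 CPM in WT, at 30.6, 33.3 and 31.8 in DGCR8 KO, and at 22.7, 20.9, 15.8 and 17.4 in DDX6 KO. Every knockout library was above every WT library, and every DGCR8 KO library above every DDX6 KO library. Bmp2k was not among the genes that placed the interval. It rose by 2.87 on the log2 scale in DGCR8 KO (SE 0.33, limma adjusted p = 2.36e-06) and by 2.13 in DDX6 KO (SE 0.33, adjusted p = 9.08e-05), and the difference between the knockouts, 0.75, also passed (SE 0.20, adjusted p = 0.00606). Paqr3, a Golgi membrane protein whose gene overlaps Bmp2k on the opposite strand and was counted apart from it, had 2 to 11 counts per library and was not tested.

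On the other side of Fras1 the nearest tested gene did not pass and the one after it did. Mrpl1, a mitochondrial ribosomal protein, ends 107.2 kb before Fras1, and it was at 62.9 to 71.1 CPM in WT, 55.4 to 72.1 in DGCR8 KO and 47.5 to 59.8 in DDX6 KO. It differed from WT by -0.08 on the log2 scale in DGCR8 KO (SE 0.14, limma adjusted p = 0.68) and by -0.34 in DDX6 KO (SE 0.13, adjusted p = 0.053). Cnot6l, a catalytic deadenylase of the CCR4-NOT complex, lies beyond it on the minus strand (chr5:96070333-96161990). It was at 56.7, 53.2 and 41.2 CPM in WT, at 124, 154 and 105 in DGCR8 KO, and at 85, 88, 86.2 and 78.9 in DDX6 KO. The genotypes of Cnot6l did not overlap. It rose by 1.38 in DGCR8 KO (SE 0.16, limma adjusted p = 2.04e-06) and by 0.79 in DDX6 KO (SE 0.15, adjusted p = 6.08e-04), and the knockouts differed by 0.59 (SE 0.13, adjusted p = 0.00163).

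Naa11, an N-terminal acetyltransferase best known from testis, closes the first stretch 290.3 kb after Bmp2k and differed in the other way. It was at 7.2, 10.6 and 7.8 CPM in WT, 6.74, 17 and 10.2 in DGCR8 KO, and 19, 15.7, 19.7 and 15.7 in DDX6 KO. The DDX6 KO libraries lay above all WT libraries, while DGCR8 KO overlapped both other genotypes. Naa11 rose by 1.03 in DDX6 KO (SE 0.28, limma adjusted p = 0.00825). Its change in DGCR8 KO was 0.30 (SE 0.32, adjusted p = 0.492), and DGCR8 KO was lower than DDX6 KO by -0.73 on the log2 scale (SE 0.27, adjusted p = 0.0345). The rise in DDX6 KO was lost without WT replicate 3 (adjusted p = 0.0663). Over 19 alternatives this rise was 0.92 to 1.17, so it did not always exceed the limit of 1.

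**Figure D2:**
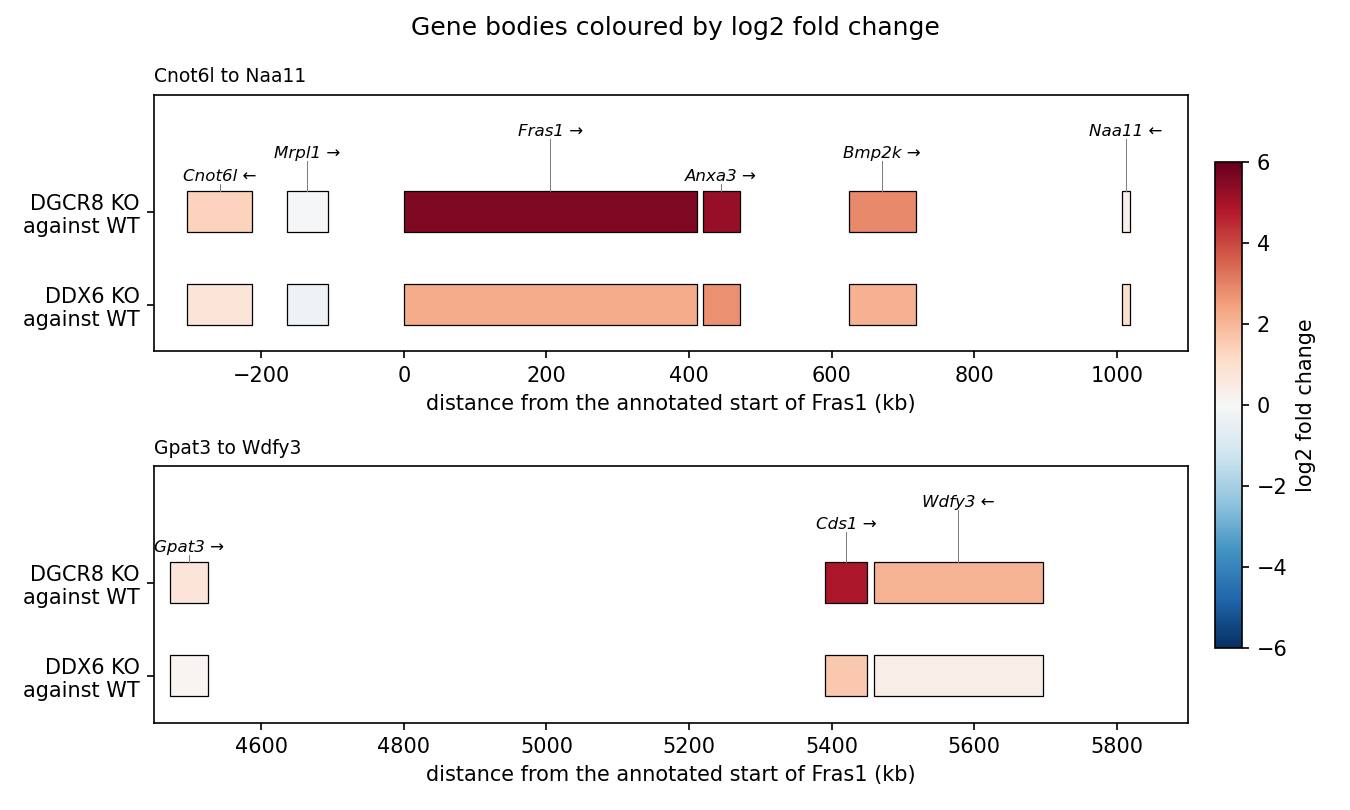
Map of the tested genes near Fras1 and Anxa3 (top) and near Cds1 (bottom), drawn to scale by distance from the annotated start of Fras1 (kb); each box is a gene body, arrows give the direction of transcription, and colour gives the log2 fold change against WT for DGCR8 KO (upper row) and DDX6 KO (lower row). Mrpl1, between Cnot6l and Fras1, is close to white in both rows, and Gpat3, before Cds1, is pale (0.78 and 0.10).

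The second place is Cds1 (ENSMUSG00000029330.8, chr5:101765130-101823858, plus strand), which starts 5.391 Mb beyond the start of Fras1. Its level was 0.96, 1.7 and 1.56 CPM in WT, 43.8, 46.8 and 52.9 in DGCR8 KO, and 5.49 and 2.78 in DDX6 KO clone 1 and 3.87 and 7.28 in clone 2. The 3 genotypes again did not overlap. Reads of Cds1 were 32.2 times as frequent in DGCR8 KO as in WT, with a fitted log2 fold change of 4.90. In DDX6 KO reads of Cds1 were 3.70 times as frequent as in WT, from 14 counts in WT and 60 in DDX6 KO in all. The fitted log2 fold change there was 1.60 (SE 0.50), with 1.35 in clone 1 and 1.82 in clone 2.

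Wdfy3, a large adaptor protein for selective autophagy, ends 9.1 kb from the end of Cds1, and the pair converge (chr5:101832956-102069921, minus strand). It was at 55.7, 45.7 and 42.6 CPM in WT, 200, 194 and 207 in DGCR8 KO, and 70.7, 61.9, 60.2 and 57.1 in DDX6 KO. Again the genotypes did not overlap, and the DGCR8 KO libraries stood well clear of the rest. Wdfy3 rose by 2.10 in DGCR8 KO (SE 0.13, limma adjusted p = 1.41e-09). In DDX6 KO it rose by 0.41 (SE 0.13, adjusted p = 0.0234), a result lost in 5 of 19 alternatives. The knockouts differed by 1.69 (SE 0.11, adjusted p = 3.02e-09). Reads were assigned by strand, so a convergent neighbour would be counted apart from Cds1.

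The next tested genes outward from this pair did not pass. Gpat3, an acyltransferase of triglyceride synthesis, lies 866 kb before Cds1 and was at 2.71 ± 0.94 CPM in WT (n = 3), 4.8 ± 0.977 in DGCR8 KO (n = 3) and 3.01 ± 1.15 in DDX6 KO (n = 4). Abraxas1, a scaffold of the BRCA1-A complex, was at 19.3 ± 3.92, 17.9 ± 2.71 and 16.6 ± 0.839 CPM in the same order. Ptpn13, a protein tyrosine phosphatase 1355.6 kb beyond Wdfy3, was at 20.4 ± 4.4, 17.3 ± 2.91 and 13.6 ± 1.47 CPM. The log2 fold changes of Gpat3 were 0.78 in DGCR8 KO (limma adjusted p = 0.161) and 0.10 in DDX6 KO (adjusted p = 0.876). Those of Ptpn13 were -0.16 (adjusted p = 0.585) and -0.51 (adjusted p = 0.0594), and those of Abraxas1 -0.17 (adjusted p = 0.541) and -0.26 (adjusted p = 0.32).

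**Figure D3:**
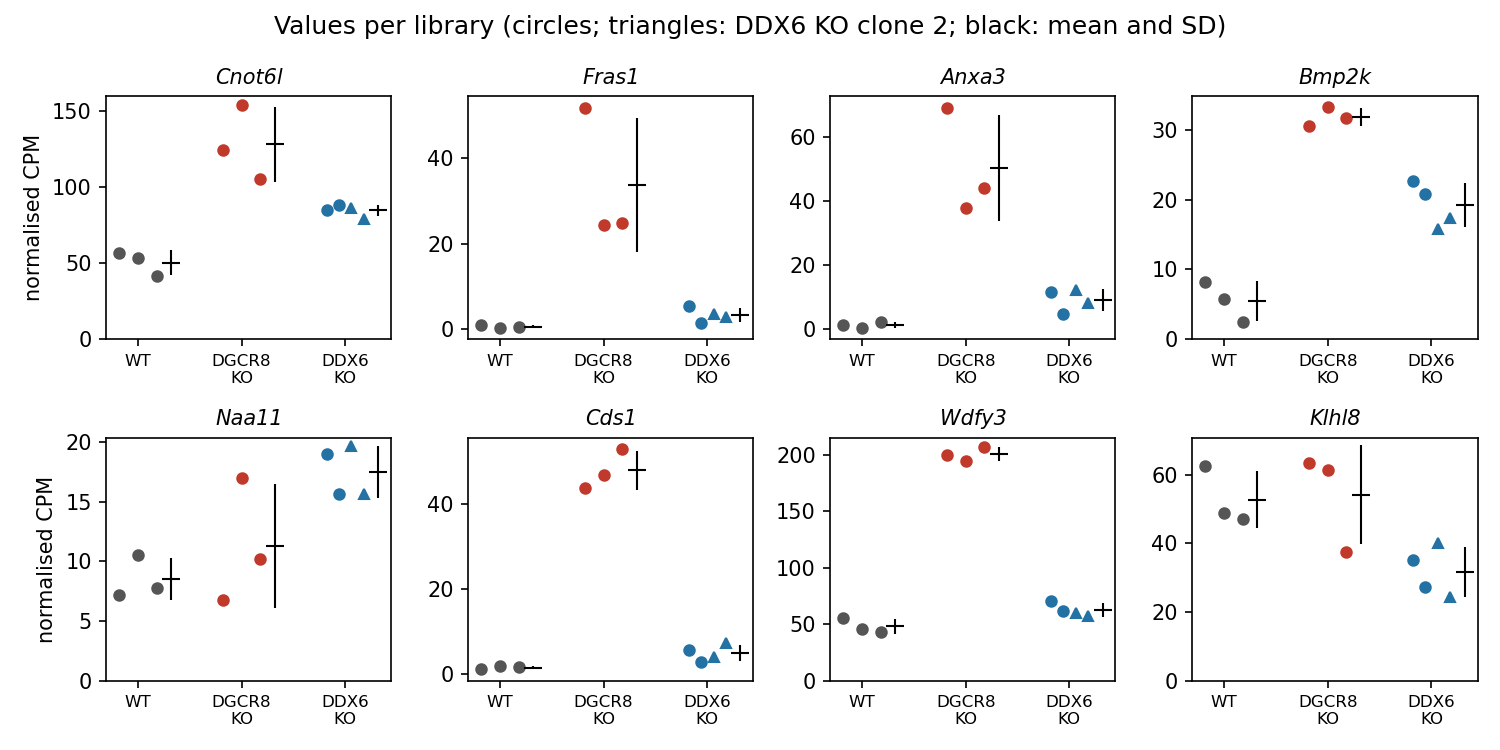
Normalised CPM (linear axes from 0) of 8 members in each library, by genotype; points are libraries, triangles mark DDX6 KO clone 2, and black bars give mean and SD. Fras1, Anxa3, Bmp2k, Cnot6l, Cds1 and Wdfy3 take the order WT, DDX6 KO, DGCR8 KO without overlap, Naa11 is raised in DDX6 KO, and Klhl8 is lowered there. Fras1, Anxa3 and Cds1 were selected on DGCR8 KO. How many of all tested genes take this order was not counted, so it is a description of these genes only.

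In DDX6 KO 5 of the 27 members were called changed (18.5%) where 11.2% of all tested genes were, and 4 of them were higher (14.8%) where 7.55% of all genes were. The 4 were Bmp2k and Naa11 with Anxa3 and Cds1, whose values are a description, so nothing is read from these shares. Without Fras1, Anxa3 and Cds1, which share their WT baseline with the comparison that placed the interval, 2 of 24 were higher (8.33%) and 1 was lower (4.17%, beside 3.66% of all genes), close to the shares of all genes. The fifth, 4930524J08Rik, a short protein-coding gene of no described function, fell: it was at 3.84, 6.81 and 5.57 CPM in WT, and at 0.733, 2.78, 2.46 and 1.96 in DDX6 KO, with no overlap. It differed from WT by -1.5 on the log2 scale (SE 0.49, limma adjusted p = 0.0237), and the call was lost in 6 of 18 alternatives. In DGCR8 KO it was at 2.14, 1.02 and 5.7 CPM and overlapped WT, with a log2 fold change of -1.22 (adjusted p = 0.0692). The number of calls in DDX6 KO fell to 3 without WT replicate 1, 2 without WT replicate 3, and 3 without the first or the fourth DDX6 KO library. With the adjusted p alone 14 members passed (51.9%, 7 higher and 7 lower) beside 34.5% of all genes, with Anxa3 and Cds1 among the higher. Scaling by total counts in place of the trimmed mean of M values (TMM) raised the median of all genes by 0.12 on the log2 scale in DDX6 KO, and then 8 members passed as higher and 3 as lower.

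No difference between the DDX6 KO clones was detected among the members. With only 2 libraries per clone, real differences could be missed. None of the 27 was called between clone 2 and clone 1 by limma or edgeR, and none had an unadjusted p under 0.05, where 5 of all tested genes were called (0.0428%) and 284 had an unadjusted p under 0.05.

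Set directly against DDX6 KO, DGCR8 KO had 1 called member among the 24 other than Fras1, Anxa3 and Cds1 (4.17%). This was Wdfy3, which was higher. Over all genes 17.1% were called in this comparison and 7.77% were called higher. Without the 3 selected genes only Wdfy3 remained, 1 of 24 (4.17%). The log2 differences were 3.39 for Fras1, 2.49 for Anxa3 and 3.30 for Cds1, again without a test because these genes were selected on the DGCR8 KO libraries. With the adjusted p alone 10 passed (37%, 9 higher and 1 lower) beside 44% of all genes, with the 3 selected genes among the higher. The knockouts share their WT libraries, so each comparison with WT is given with its own values and the agreement between them is not measured.

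The other tested members, by role, differed from WT by less than 1 on the log2 scale in both knockouts. Hnrnpd and Hnrnpdl are related RNA-binding proteins of pre-mRNA processing and mRNA turnover. Hnrnpd was at 611 ± 37.5 CPM in WT, 513 ± 69.5 in DGCR8 KO and 478 ± 40.5 in DDX6 KO, and fell in DDX6 KO by 0.35 on the log2 scale (SE 0.10, limma adjusted p = 0.0114). This result was lost in 3 of 19 alternatives, with total counts (adjusted p = 0.0771), without WT replicate 2 (0.0529) and in clone 2 alone (0.0735). Hnrnpdl was at 519 ± 36.6, 625 ± 44.4 and 436 ± 26.5 CPM. Its log2 fold changes of 0.27 in DGCR8 KO (adjusted p = 0.0351) and -0.26 in DDX6 KO (adjusted p = 0.0357) were each lost in 8 of 19 alternatives, while the difference between the knockouts was 0.52 (SE 0.09, adjusted p = 1.39e-04). Enoph1, an enzyme of methionine salvage that starts 762 bases from Hnrnpdl on the opposite strand, fell in both knockouts. It was at 61, 76.3 and 70.2 CPM in WT, 53.6, 45.1 and 48.5 in DGCR8 KO, and 39.9, 45.6, 39 and 35.5 in DDX6 KO, each knockout wholly below WT. It fell by 0.50 on the log2 scale in DGCR8 KO (SE 0.14, limma adjusted p = 0.00937) and by 0.80 in DDX6 KO (SE 0.13, adjusted p = 1.94e-04). Both falls passed in all 19 alternatives.

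Of the 3 mitochondrial members, Mrps18c, a ribosomal protein, was lower in DGCR8 KO at -0.57 (limma adjusted p = 0.0382, lost in 6 of 19 alternatives) and Coq2, of ubiquinone synthesis, was lower in DDX6 KO at -0.77 (adjusted p = 0.0415, lost in 11 of 19). Mrps18c overlaps the tested row Gm43511 on the same strand, so reads in the overlap are uncertain for both. Of the 5 members for DNA repair and cell cycle transcription, Aff1, a subunit of the super elongation complex, rose in DGCR8 KO by 0.27 (adjusted p = 0.0335, lost in 9 of 19). Lin54, the DNA-binding subunit of the DREAM complex, rose in DDX6 KO by 0.48 (adjusted p = 0.0226, lost in 5 of 19). The DNA helicase Helq and the COP9 subunit Cops4 had adjusted p from 0.294 to 0.973 in both knockouts. In secretion, the COPII coat protein Sec31a fell in DDX6 KO by 0.29 (adjusted p = 0.0381, lost in 9 of 19).

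At the far end of the interval Klhl8, a substrate adaptor of CUL3 ubiquitin ligase, was at 62.4, 48.7 and 47 CPM in WT, 63.4, 61.4 and 37.5 in DGCR8 KO, and 35.2, 27.1, 40.1 and 24.3 in DDX6 KO. All DDX6 KO libraries lay below WT, while DGCR8 KO overlapped both. Klhl8 fell by 0.74 in DDX6 KO (SE 0.20, limma adjusted p = 0.00849), with a log2 fold change of 0.06 in DGCR8 KO (adjusted p = 0.83) and a difference of 0.80 between the knockouts (adjusted p = 0.00375). In clone 1 alone its adjusted p was 0.0513. Its neighbour Hsd17b11, a lipid-droplet steroid dehydrogenase and the last tested member, was at 46.2 ± 8.78, 39.1 ± 4.89 and 50 ± 9.84 CPM in WT, DGCR8 KO and DDX6 KO and passed in neither. The row of the miRNA gene Mir703 was at 132 to 238 CPM over all libraries, with log2 fold changes of 0.10 (adjusted p = 0.605) and -0.27 (adjusted p = 0.117).

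As a whole the interval was near its surroundings in DGCR8 KO. The median log2 fold change of its tested members was 0.06, and -0.020 without Fras1, Anxa3 and Cds1, beside 0.00 over all genes, 0.04 over the other 745 tested genes of chromosome 5, 0.15 over the 30 tested genes of the 10 Mb before it and 0.05 over the 77 of the 10 Mb after it. Genes called higher made up 13.3% of the flank before and 10.4% of the flank after. Of the 27 members 17 (63%) lay within 0.5 of no change, as did 58.1% of all genes. In DDX6 KO the median was -0.26, beside 0.02 over all genes, -0.01 in the flank before and -0.07 in the flank after. This median was -0.14 with total counts and 0.10 with no filter on low counts, so neither its size nor its sign was stable. Per library the interval's median stood at -0.16 to -0.111 in DDX6 KO, below the -0.0623 to 0.0903 of the WT libraries, and at 0.0062 to 0.133 in DGCR8 KO, which overlapped WT. These medians describe the members and carry no test.

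**Figure D4:**
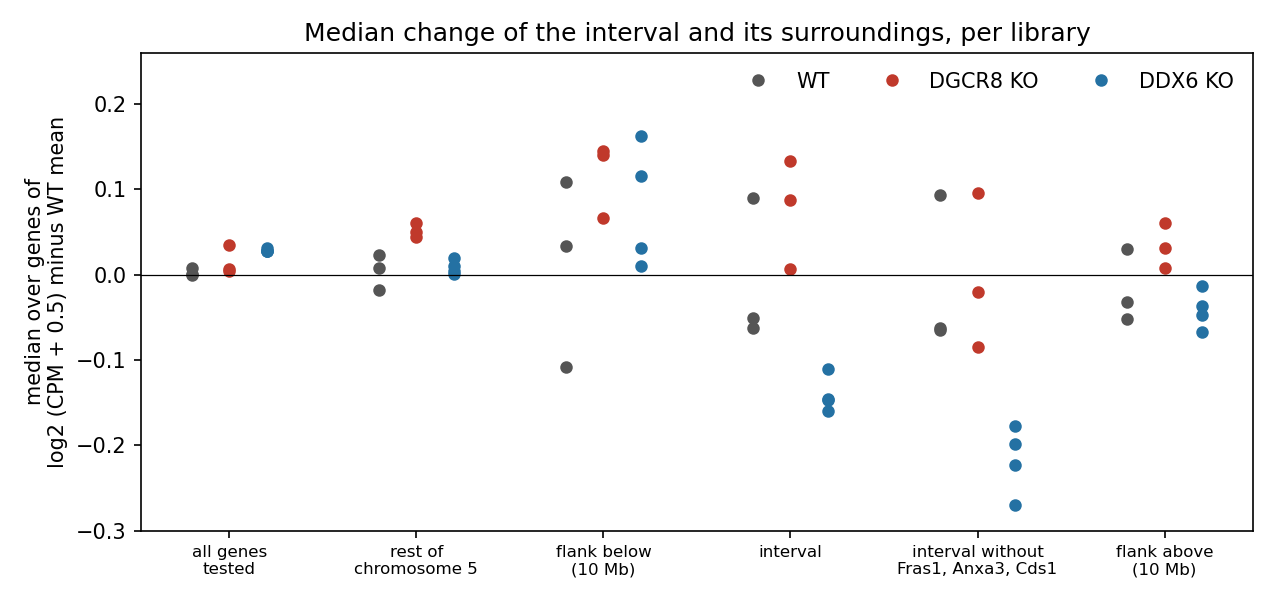
Each point is one library and gives the median, over tested genes, of the difference of log2(CPM + 0.5) from the WT mean, for all genes, the rest of chromosome 5, the interval with and without Fras1, Anxa3 and Cds1, and the 10 Mb flanks; grey is WT, red DGCR8 KO and blue DDX6 KO. The DDX6 KO libraries lie below the WT libraries in the interval, from -0.16 to -0.111, over the genes that passed the filter; with no filter the fitted median for DDX6 KO was 0.10.

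Cell type markers were read beside these results. All 8 ESC markers were tested and summed to 3365 to 3442 CPM in WT, 3155 to 3523 in DGCR8 KO and 3508 to 3786 in DDX6 KO. Single ESC markers moved apart. In DGCR8 KO Sox2 rose by 0.50 on the log2 scale (limma adjusted p = 0.00298). Klf4 fell by 0.46 (adjusted p = 0.0188), Nanog by 0.33 (0.0281) and Zfp42 by 0.27 (0.0499). In DDX6 KO only Nanog passed, higher by 0.62 (adjusted p = 1.71e-04). The 7 primitive endoderm markers, 1 of them tested (Dab2), summed to 8.69 to 13.4 CPM in WT, 4.07 to 6.45 in DGCR8 KO and 17.4 to 24.5 in DDX6 KO. The 7 fibroblast feeder markers, 1 tested, summed to 3.41 to 4.32, 2.44 to 3.39 and 5.28 to 9.52 CPM, and the 7 trophoblast markers, 4 tested and Elf5 at 0 in every library, to 34.8 to 52.8, 33.4 to 50.5 and 38.6 to 61.6 CPM. The endoderm sum was carried by Dab2, at 6.29 ± 2.42 CPM in WT, 1.06 ± 0.66 in DGCR8 KO and 16.6 ± 3.25 in DDX6 KO, while Pdgfra was at 0.337, 1.87 and 1.11 CPM on average. Col1a1 made up most of the feeder sum in DDX6 KO, with means of 1.88, 0.566 and 4.07 CPM in WT, DGCR8 KO and DDX6 KO, and Col1a2, Col3a1 and Thy1 were at 1.06 CPM or below on average in each genotype. Of the trophoblast markers, the keratin Krt8 rose in DGCR8 KO by 1.43 (limma adjusted p = 0.0149) and in DDX6 KO by 1.94 (adjusted p = 0.00111). Its partner Krt18 rose in DDX6 KO by 1.29 (adjusted p = 0.00756) but not in DGCR8 KO (adjusted p = 0.998). The other tested markers, Eomes and Gata3, pointed down without passing. They were at -0.43 and -0.21 in DGCR8 KO and at -0.12 and -0.76 in DDX6 KO (adjusted p from 0.053 to 0.776). The part of these cell types in the results was not tested.

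The partners of the 3 genes outside the interval moved unevenly. Of the Fraser complex, the basement membrane proteins FRAS1 and FREM with the adaptor GRIP1, only Fras1 of 5 genes was tested. It passed the filter only through DGCR8 KO. Frem3 was at 0 in every library. Of 12 annexins 7 were tested. In DGCR8 KO 3 of the 6 other than Anxa3 rose and 1 fell, beside 36.3% of all genes that passed in either direction. Anxa2 rose by 2.43 (limma adjusted p = 2.05e-05), Anxa4 by 1.31 and Anxa7 by 0.58, while Anxa6 fell, from 36 ± 2.95 to 4.93 ± 0.873 CPM. In DDX6 KO 2 of the 6 rose, Anxa1 by 3.86 and Anxa4 by 1.37, with none lower, beside 34.5% of all genes. All 7 genes of the CDP-diacylglycerol pathway were tested. In DGCR8 KO 1 of the 6 other than Cds1 passed, its paralogue Cds2, which rose from 48.6 ± 3.86 to 119 ± 14.2 CPM (log2 fold change 1.28, adjusted p = 2.44e-06). Cds2 was at 49 ± 6.96 CPM in DDX6 KO (log2 fold change -0.01, adjusted p = 0.972), where Tamm41, the mitochondrial CDP-diacylglycerol synthase, fell by 0.70 (adjusted p = 0.00396).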

How the data were processed

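The deposited table holds raw counts per gene and library, 10 libraries in 3 groups taken from the labels. Per the file header and the submitters' processing notes, the authors trimmed reads with cutadapt 1.14, mapped them with STAR 2.5.3a to mm10, kept unique alignments, and counted sense-strand exon reads with featureCounts 1.5.3 on Gencode M14 without rRNA genes and with 92 ERCC sequences. No molecular identifiers are stated. At 2131156 to 4745083 counts per library, 3 counts are 0.669 to 1.44 CPM.

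The fit used limma 3.58.1 with voom weights and edgeR 4.0.16 TMM factors on all libraries, genes with at least 3 CPM in 3 libraries, and Benjamini-Hochberg adjustment over all 11683. Printed CPM use the TMM-scaled totals. Scripts were tested on simulated data. Symbols, strands and 3′UTRs came from Gencode M21, of the same build, where 165 of 184 member spans were equal. Named genes were Fras1, Anxa3 and Cds1, the 2 nearest tested genes on either side of each, all called members, the 5 of highest mean CPM, the 2 at either end, and tested members of the role lists. Members and lists were chosen with earlier results of these data known. Libraries of one genotype differed by more than sampling noise (chi-square per degree of freedom 2.44 to 7.62). WT and DGCR8 KO libraries of the same number deviated together (r = 0.112, 0.233 and 0.236 over genes), so the numbers were taken to pair them. The printed p-values and SE come from a fit by genotype alone, without this pairing, which entered the alternatives as a replicate block. Alternatives were other scalings, filters and tests (DESeq2 1.42.0, edgeR, limma-trend), clones apart, a replicate block, a narrower interval and leaving out each library; a fit of WT and DGCR8 KO alone and the median without the 3 genes were added after seeing the data.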

Additional observations from a re-analysis of the deposited data

How the results depend on the processing

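No result changed direction in a called value. With a replicate block of WT and DGCR8 KO libraries 6 members were called in DGCR8 KO, as without it, and no call of a named gene was lost. Without a filter 10 members were called in DGCR8 KO, 8 in DDX6 KO and 10 between the knockouts. With the adjusted p alone the counts were 10, 14 and 10, where 36.3%, 34.5% and 44% of all tested genes passed. Clone 1 alone gave 3 calls in DDX6 KO. Leaving out one library gave 6 to 7, 2 to 6 and 4 to 5 calls. All these counts include any of Fras1, Anxa3 and Cds1 that met the thresholds, and are a description. For the other settings the share of all genes called was not counted, so nothing is read from them about the interval. The median log2 fold change in DGCR8 KO was 0.18 over a window of 5 Mb around Fras1 and Anxa3, -0.020 without Fras1, Anxa3 and Cds1, and -0.031 to 0.14 without one library. The median in DDX6 KO was -0.14 with total counts, 0.10 with no filter, -0.20 with the filter at 10 CPM, -0.19 with limma-trend, -0.14 in clone 1 alone and -0.26 to -0.15 without one library, so its sign rested on the filter. The median between the knockouts was 0.17 with total counts and 0.20 to 0.33 without one library. Causes of these moves were not tested, except that no filter adds low-count genes. In DGCR8 KO, Cnot6l, Bmp2k, Wdfy3 and Enoph1 passed in all 19 alternatives, as did Bmp2k, Cnot6l and Enoph1 in DDX6 KO. Depth limits Fras1, Anxa3 and Cds1 in WT, with 1 to 10 counts per library.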

Other observations

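Members below the testing limit also held reads. Gm43273, an annotated transcript of unknown status inside Cds1 on the same strand, had 0 counts in all 3 WT libraries, 8, 3 and 4 in DGCR8 KO, and 0, 1, 0 and 3 in DDX6 KO. The lincRNA 9430085M18Rik, which starts before Cds1, had 0, 2 and 3 counts in WT and 9, 10 and 2 in DGCR8 KO. Nkx6-1, a homeobox factor of pancreas and neural tube between Gpat3 and Cds1, had 2, 0 and 1 counts in WT, 5, 5 and 2 in DGCR8 KO and 1, 3, 0 and 1 in DDX6 KO.

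Plac8 and the heparanase gene Hpse, which both lie between Cops4 and Helq, were sparse in DGCR8 KO. Plac8 had 1, 11 and 7 counts in WT, 1 in each DGCR8 KO library, and 3, 5, 9 and 10 in DDX6 KO. Hpse had 1, 9 and 3 counts in WT, 0, 1 and 0 in DGCR8 KO, and 4, 7, 2 and 7 in DDX6 KO. WT replicate 1, the library with the fewest counts in all, had 1 count in each of the 2 genes. Scaled, that was 0.48 CPM, with DGCR8 KO at 0.306 to 0.407 CPM for Plac8 and 0 to 0.339 for Hpse. So few counts leave this order uncertain. Rasgef1b, an exchange factor for RAP GTPases, had 0, 2 and 0 counts in WT, 0, 4 and 3 in DGCR8 KO and 1, 6, 5 and 7 in DDX6 KO. With no filter on low counts the members added to the calls were Gm17092, Hpse, 9430085M18Rik and Gm43273 in DGCR8 KO, and Rasgef1b, Gm20548 and Slc10a6 in DDX6 KO. Gm20548, antisense to Wdfy3, had 1, 5 and 4 counts in WT, 3, 3 and 4 in DGCR8 KO, and 0, 1, 0 and 0 in DDX6 KO. Slc10a6 had 4 libraries with 1 or 2 counts, all of them DDX6 KO. These genes were chosen after their values were seen, and none reached 3 CPM in 3 libraries.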
